A study of Danio rerio with 6 samples.

Results

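The genes described here are the signal transducers and activators of transcription (STAT) stat1a, stat1b, stat2, stat3, stat4, stat5a and stat6, and the suppressors of cytokine signalling (SOCS) socs1a, socs3a and socs3b. They were chosen by gene name, with their levels in these libraries already known, and 8 of the 10 were found by name among 12398 genes. Values under the names stat6 and socs3a were not analysed here. All 8 genes had at least 10 counts over the libraries and so were among the 12381 genes tested.

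Cytokines that bind a receptor activate the Janus kinases (JAK) attached to it, which phosphorylate STAT proteins, and these enter the nucleus and switch on target genes. In mammals STAT2 carries interferon signals, STAT3 carries those of interleukin 6, interleukin 10 and interleukin 22, STAT4 that of interleukin 12, and STAT5 those of growth hormone, prolactin and interleukin 2. Genes of the SOCS family are among the targets of STAT proteins, and their products dampen the same receptors and kinases, so that SOCS transcripts are often used as a readout of the pathway. In the gut, STAT3 is known for its role in epithelial repair and antimicrobial defence.

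RNA was sequenced from the full thickness of the proximal intestine (segment S1) of adult male wild-type Ekk zebrafish at 2 weeks after surgery. In the short bowel syndrome (SBS) group the abdomen was opened, the bowel was tied off at the junction of segments S3 and S4, its middle part was cut out and the proximal end was opened as a stoma at the junction of S1 and S2, whereas sham fish had a laparotomy with the bowel left untouched. The samples with the most concentrated RNA were picked for sequencing, and by the study's account the libraries were made from individual fish, which the labels do not number. The comparison asks how the proximal bowel of SBS fish differs from that of sham fish in its gene expression.

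SBS replicate 1 and SBS replicate 2 held equal counts in 12488 of 12488 lines of the table, so both were counted as 1 library, called SBS replicate 1. All of its counts were even numbers, and whether they were doubled was not tested. The study lists different numbers of mapped reads for SBS replicate 1 and SBS replicate 2. Which fish the shared counts come from therefore cannot be told. Counting them once left 3 sham and 2 SBS libraries. Reads counted on genes were 38728394 to 47142289 per sham library, 20377652 for SBS replicate 1 and 38867364 for SBS replicate 3. Levels are given as CPM, read counts relative to a library size that was scaled with the trimmed mean of M-values (TMM), whose factors were 0.707 to 0.919 for the sham libraries, 1.502 for SBS replicate 1 and 1.33 for SBS replicate 3. Differences of a single SBS library from the sham mean are in log2 CPM and have no replicate check. A gene was called when edgeR's quasi-likelihood test gave an adjusted p under 0.05 and the log2 fold change of SBS over sham was at least 1.5 in size. In whole bowel, fewer cells of a type and less RNA per cell cannot be told apart.

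The SBS libraries differed from each other in which STAT genes were high. The level of stat1b was 9.21-fold the sham mean in SBS replicate 1 and close to it in SBS replicate 3, whereas stat3 and stat4 were near the sham mean in SBS replicate 1 and 3.86-fold and 5.65-fold the sham mean in SBS replicate 3. Of the 8 genes, 6 (stat1a, stat1b, stat2, stat5a, socs1a and socs3b) lay above every sham library in SBS replicate 1, as did 38.4% of all genes tested. In SBS replicate 3, 5 of the 8 did (stat1b, stat3, stat4, socs1a and socs3b), against 34.7% of all genes, and 3 (stat1b, socs1a and socs3b) lay above every sham library in both, against 22.6%. Under RUVg, a fit with an estimated factor of unwanted variation, the log2 fold change of stat1b was 0.91, whereas that of stat3 was 1.63 and that of stat4 was 2.08. None of the 8 lay below the sham libraries in both SBS libraries, where 24.3% of all genes did. Since the genes were chosen on this contrast, these counts are a description.

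**Figure D1:**
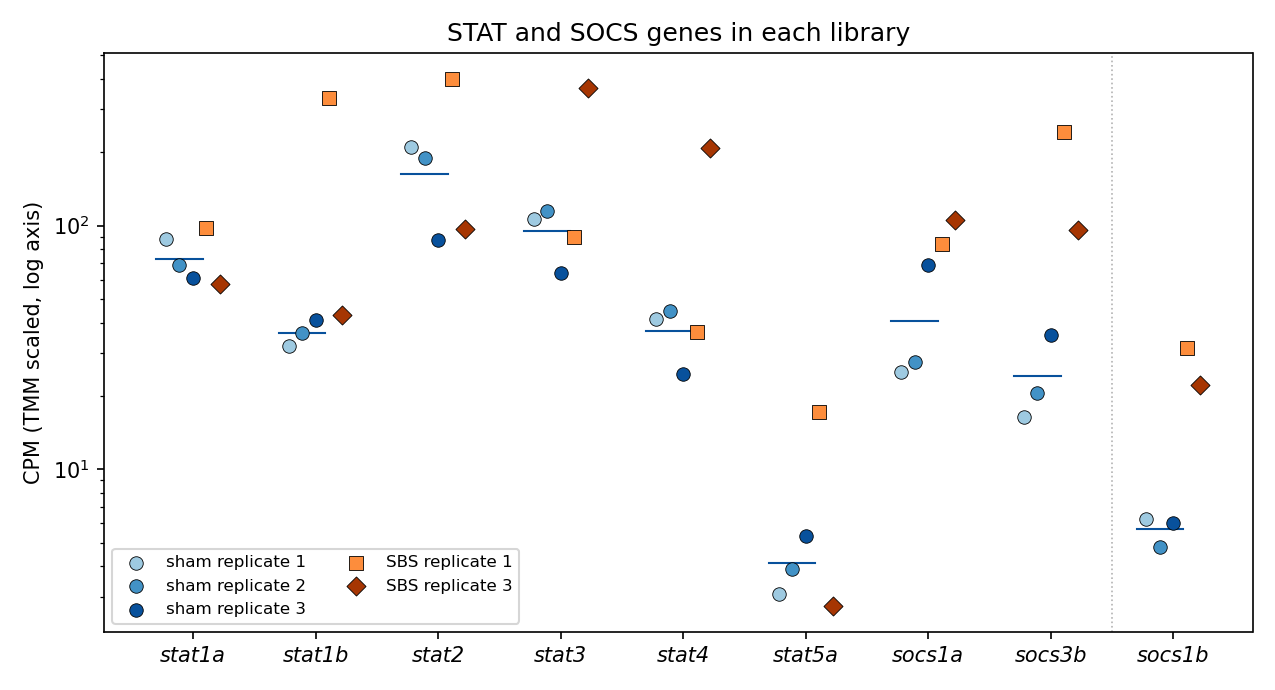
Level of each STAT and SOCS gene in each library, in CPM after TMM scaling on a log axis, with socs1b shown for comparison. Blue circles are the 3 sham libraries, the blue line is their mean, the orange square is SBS replicate 1 and the red diamond is SBS replicate 3. The square stands far above the sham libraries for stat1b (335 CPM) and the diamond for stat3 (367 CPM) and stat4 (208 CPM), while both stand above them for socs3b and socs1b.

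stat1b (ENSDARG00000076182, chromosome 9) was at 32.1, 36.1 and 41.0 CPM in the sham libraries, 335 CPM in SBS replicate 1 and 42.8 CPM in SBS replicate 3. Both SBS libraries were above sham, but SBS replicate 3 exceeded the highest sham library by less than the sham libraries differed among themselves. The differences from the sham mean were 3.21 and 0.24, and the fitted log2 fold change was 2.38 (SE 0.78, n = 3 sham and 2 SBS). Without SBS replicate 1 it was 0.23, and without SBS replicate 3 it was 3.21.

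stat1a (ENSDARG00000006266, chromosome 22) did not share this pattern. It was at 88.1, 69.2 and 61.0 CPM in sham, 98.1 CPM in SBS replicate 1 and 57.7 CPM in SBS replicate 3. SBS replicate 1 was just above the sham libraries and SBS replicate 3 just below them. The ratio of stat1b to stat1a counts was 0.364 to 0.672 across the sham libraries, against 3.42 in SBS replicate 1 and 0.741 in SBS replicate 3, so that stat1b had fewer counts than stat1a in every library except SBS replicate 1. How reads shared by similar genes were assigned is not given in the sources used here.

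stat2 (ENSDARG00000031647, chromosome 6), the partner of IRF9 in the complex formed after type I interferon, was at 210, 190 and 87.2 CPM in sham, 398 CPM in SBS replicate 1 and 96.6 CPM in SBS replicate 3. SBS replicate 1 was above all sham libraries, while SBS replicate 3 lay within the sham range, close to sham replicate 3. The differences from the sham mean were 1.40 and -0.65. stat5a (ENSDARG00000019392, chromosome 3), which in mammals acts below the growth hormone, prolactin and interleukin 2 receptors, was at 3.09, 3.91 and 5.31 CPM in sham, 17.1 CPM in SBS replicate 1 and 2.75 CPM in SBS replicate 3. It too was high in SBS replicate 1, at 4.17-fold the sham mean, and just below the sham libraries in SBS replicate 3.

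stat3 (ENSDARG00000022712, chromosome 3), the STAT of the interleukin 6 family, was at 106, 115 and 64.0 CPM in sham, 90.0 CPM in SBS replicate 1 and 367 CPM in SBS replicate 3. stat4 (ENSDARG00000028731, chromosome 9), which in mammals carries the interleukin 12 signal in T cells and natural killer cells, was at 41.4, 44.5 and 24.5 CPM in sham, 36.7 CPM in SBS replicate 1 and 208 CPM in SBS replicate 3. For both genes SBS replicate 1 lay inside the sham range, SBS replicate 3 stood alone above it and sham replicate 3 was the lowest library. For stat3 the differences from the sham mean were -0.03 (SBS replicate 1) and 1.99 (SBS replicate 3). For stat4 they were 0.04 and 2.54. The fitted log2 fold change was 1.26 (SE 0.62) for stat3 and 1.73 (SE 0.71) for stat4. Without SBS replicate 3 these were -0.08 and -0.002, and without SBS replicate 1 they were 1.95 and 2.50.

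Among all genes tested, 9.28% were higher in SBS replicate 3 than in SBS replicate 1 by at least 1.5 on the log2 scale and 12.7% were lower by as much. stat3 (2.03) and stat4 (2.50) belonged to the former, and stat1b (-2.97), stat5a (-2.63) and stat2 (-2.04) to the latter. In the order of this difference, 95.1% of genes tested had a smaller value than stat3 and 97.1% a smaller one than stat4. For stat1b the share was 3.80%. socs3b (-1.33, 14.6%) and socs1a (0.33, 61.1%) lay between these.

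**Figure D2:**
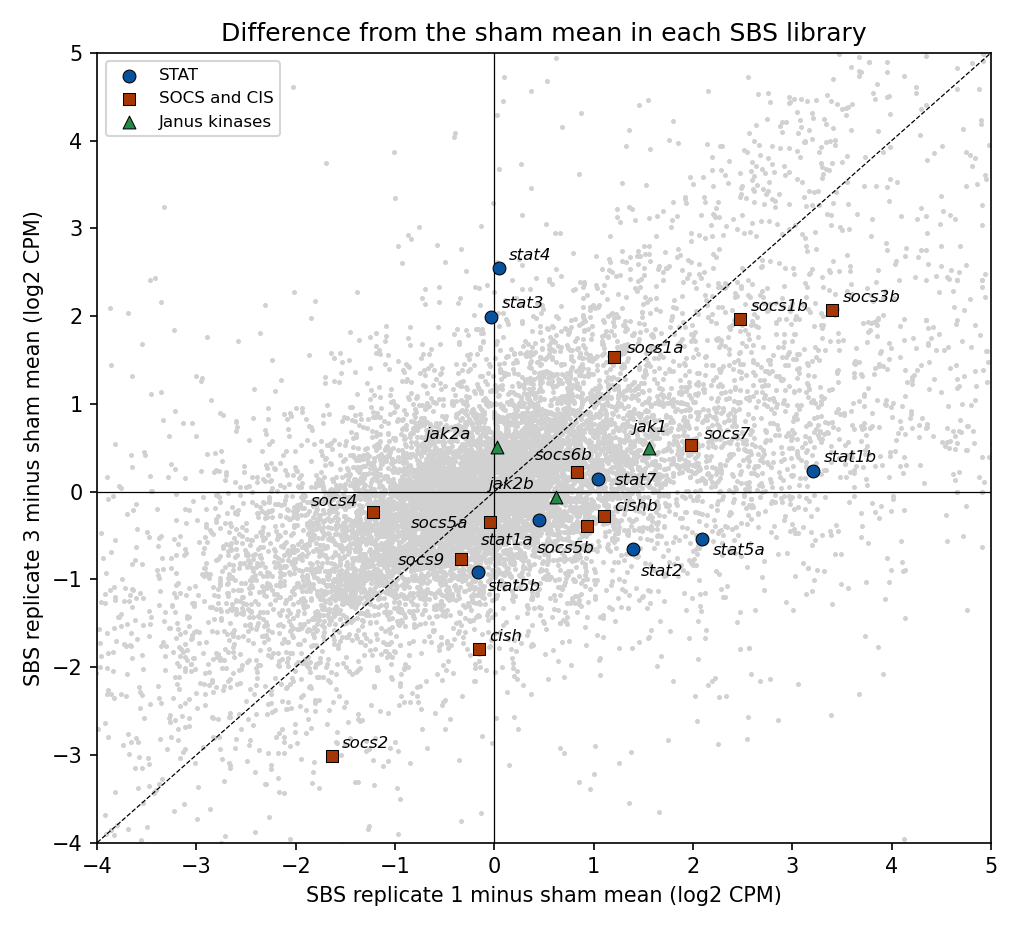
Difference from the sham mean in SBS replicate 1 (x axis) and SBS replicate 3 (y axis), both in log2 CPM. Blue circles are STAT genes, red squares SOCS and CIS genes, green triangles Janus kinases, grey points the other genes tested within the axis limits, and the dashed line marks equal differences. stat3 and stat4 lie on the vertical axis near 2 and 2.5, stat1b near the horizontal axis at 3.21, and socs3b, socs1b and socs1a in the upper right.

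stat3 and stat4 kept nearly the same ratio of counts in 4 of the 5 libraries. It was 2.57, 2.58 and 2.61 for the sham libraries, 2.45 for SBS replicate 1 but 1.76 for SBS replicate 3. The last was the lowest, stat4 being further above sham than stat3 there. The ratio of stat1b to stat4 counts was 0.775, 0.812 and 1.67 for the sham libraries, 9.13 for SBS replicate 1 and 0.206 for SBS replicate 3, so that the SBS libraries lay on opposite sides of all sham libraries. In the RefSeq annotation of assembly GRCz12tu, stat4 and stat1b are neighbouring protein-coding genes on chromosome 9, and stat3 and stat5a are neighbours on chromosome 3. In each of these pairs of neighbours, the genes differed in opposite directions between the SBS libraries.

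**Figure D3:**
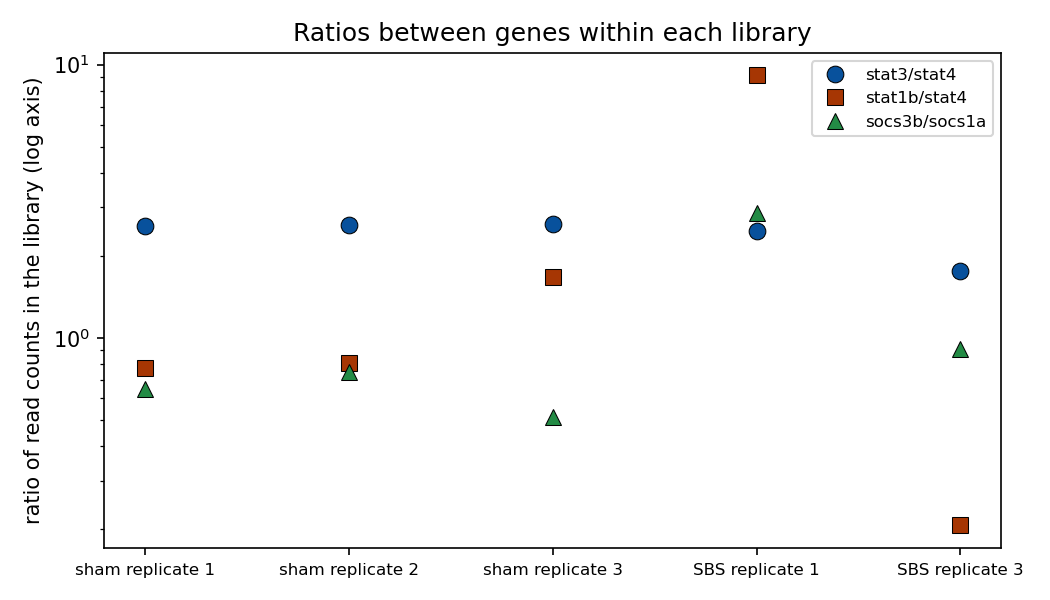
Ratio of read counts between genes within each library, on a log axis. Blue circles are stat3 over stat4, red squares stat1b over stat4 and green triangles socs3b over socs1a. The circles stay between 2.45 and 2.61 except in SBS replicate 3 (1.76), while the squares reach 9.13 for SBS replicate 1 and fall to 0.206 for SBS replicate 3.

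Likeness of patterns was measured as the root mean square difference over the 5 libraries, in log2 CPM, after the sham mean of each gene was subtracted. It is a description over 3 sham and 2 SBS libraries. The genes nearest to stat4 were zgc:153642 (0.115), stat3 (0.249) and pcxa (0.264), which encodes pyruvate carboxylase. Those nearest to stat3 were zgc:101785 (0.144), zgc:153642 (0.177) and psmd5 (0.200), a proteasome assembly factor, with stat4 at rank 6. zgc:153642, near to both, was at 21.6, 20.5 and 11.5 CPM in sham, 16.4 CPM in SBS replicate 1 and 88.2 CPM in SBS replicate 3. Nearest to stat1b were tcirg1b (0.141), a subunit of the vacuolar proton pump, il10ra (0.147), a chain of the interleukin 10 receptor, and slc4a2b (0.157), an anion exchanger. il10ra was at 9.47, 10.1 and 11.4 CPM in sham, 86.7 CPM in SBS replicate 1 and 9.97 CPM in SBS replicate 3. Of the other STAT genes, stat5a came closest to stat1b (0.624), with 3.63% of genes tested nearer.

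Some SOCS genes differed from sham in the same direction in both SBS libraries. Above every sham library in both were 5 of the 12 SOCS and CIS genes, against 22.6% of all genes tested. These were socs3b, socs1a, socs1b, socs6b and socs7. Of them, socs3b and socs1a were chosen with their levels already known. Among the 11 other STAT and SOCS genes found, 3 lay above every sham library in both, against the same 22.6%. In SBS replicate 3, socs6b was only just above sham, at 9.02 CPM against 8.79 CPM in sham replicate 3. So was socs7, at 4.42 CPM against 4.16 CPM in sham replicate 2. Below every sham library in both were 2 (socs2 and socs9), against 24.3% of all genes tested. socs3b (ENSDARG00000026611, chromosome 12), a copy of SOCS3, which in mammals binds the gp130 chain of the interleukin 6 receptor and shuts off STAT3 signalling, was at 16.3, 20.6 and 35.6 CPM in sham, 241 CPM in SBS replicate 1 and 95.8 CPM in SBS replicate 3. Both SBS libraries stood above every sham library, at 9.99-fold and 3.96-fold the sham mean. The fitted log2 fold change was 2.80 (SE 0.52). It was 1.99 without SBS replicate 1 and 3.32 without SBS replicate 3. socs3b was the 1 of the 8 genes called higher in SBS, where 2.49% of all genes tested were called higher and 2.06% lower, and it was not called when any sham library or SBS replicate 1 was left out. No gene at all was called when a sham library was left out, although by the same edgeR test 2214 to 2660 had an unadjusted p under 0.05.

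socs1a (ENSDARG00000038095, chromosome 3), a copy of SOCS1, which inhibits Janus kinases after interferon, was at 25.1, 27.5 and 69.2 CPM in sham, 84.0 CPM in SBS replicate 1 and 105 CPM in SBS replicate 3. Both SBS libraries were above sham, though the gap from sham replicate 3 to SBS replicate 1 was smaller than that between sham replicate 3 and the other sham libraries. The differences from the sham mean were 1.21 and 1.54, and the fitted log2 fold change was 1.22 (SE 0.51). The ratio of socs3b to socs1a counts was 0.514 to 0.747 for the sham libraries, 2.87 for SBS replicate 1 and 0.908 for SBS replicate 3.

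Thus the difference of socs3b from the sham mean was 3.40 in SBS replicate 1, where stat1b was high, and 2.07 in SBS replicate 3, where stat3 and stat4 were high. That of socs1a was 1.21 and 1.54, in the opposite order. By likeness over all libraries, socs3b was nearest to stat1b (0.860, with 8.67% of genes tested nearer to stat1b) and further from stat4 (1.65) and stat3 (1.66). socs1a was at a similar distance from stat3 (0.993), stat4 (1.06) and stat1b (1.14). Without SBS replicate 1, socs3b was instead nearest to stat3 and socs1a to stat1b, and socs1a was nearest to stat4 without SBS replicate 3 and also without sham replicate 3.

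Sham replicate 3 was the lowest sham library for stat1a, stat2, stat3 and stat4 and the highest for stat1b, stat5a, socs1a and socs3b. In that library the markers of exocrine pancreas, summed, were at 56248 CPM, against 18992 and 2133 CPM in the other sham libraries. The part of this in the levels was not tested. Per kilobase of the listed gene length, the mean sham level was highest for socs1a at 35.9 ± 21.9 CPM per kilobase (SD, n = 3), followed by stat3 (30.9 ± 8.85), stat1a (28.7 ± 5.49), stat2 (26.2 ± 10.6), stat4 (15.9 ± 4.64), socs3b (11.8 ± 4.92), stat1b (8.80 ± 1.08) and stat5a (1.46 ± 0.40). The place of socs1a rested on sham replicate 3, its levels being 22.2, 24.4 and 61.2 CPM per kilobase, so that in the other sham libraries it stood below stat3, stat1a and stat2. Neighbours in this order overlapped in their sham ranges, except for stat1b and stat5a. Within each sham library, stat2 also stood above stat4 and socs3b above stat1b.

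The other STAT and SOCS genes numbered 11 found of 17 sought. Of these, 1 was called higher and 0 lower by edgeR's quasi-likelihood test, against 2.49% and 2.06% of all genes tested. By the same test 2 were higher and 1 lower at an unadjusted p under 0.05, against 1948 and 1626 of all 12381 genes tested. DESeq2's Wald test called 1 in each direction, against 1177 higher and 711 lower. The median log2 fold change of the 11 genes was -0.21, against 0.00 over all genes tested. socs1b (ENSDARG00000089873, chromosome 1), the second copy of SOCS1, was at 6.26, 4.81 and 6.002 CPM in sham, 31.5 CPM in SBS replicate 1 and 22.1 CPM in SBS replicate 3. It rose by 2.24 on the log2 scale (SE 0.29, edgeR adjusted p = 0.023), with both SBS libraries far above every sham library. The log2 fold change was 1.96 without SBS replicate 1 and 2.47 without SBS replicate 3, and the adjusted p was 0.091 to 0.110 when a sham library was left out.

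socs2, which in mammals restrains growth hormone signalling, was at 9.96, 9.78 and 17.01 CPM in sham, 3.79 CPM in SBS replicate 1 and 1.45 CPM in SBS replicate 3. Both SBS libraries were below every sham library, with a log2 fold change of -2.23 that was not called (edgeR adjusted p = 0.077). cish, which encodes the STAT5 target CIS, varied more among sham libraries than between groups, at 18.9, 27.5 and 72.6 CPM in sham, 30.2 CPM in SBS replicate 1 and 9.68 CPM in SBS replicate 3. socs7 was at 2.52 to 4.16 CPM in sham, 12.09 CPM in SBS replicate 1 and 4.42 CPM in SBS replicate 3, a pattern near that of stat1b (0.633, with 3.83% of genes tested nearer).

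The remaining genes of the family had smaller differences. The log2 fold changes were between -0.57 and 0.55 for socs6b, socs5b, socs5a, socs9 and stat5b and -0.77 for socs4, which had 4 to 16 counts per library. The other copy of cish, cishb, was at 1.18 to 5.88 CPM in sham, a range that held both SBS libraries. stat7, which the RefSeq table gives as another name of stat6, was at 0.58, 1.66 and 0.78 CPM in sham, 1.90 CPM in SBS replicate 1 and 1.01 CPM in SBS replicate 3. It is listed with no Ensembl identifier and was not counted as stat6. Of these 11 genes, 10 were higher in SBS replicate 1 than in SBS replicate 3, where 47.4% of all genes were.

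Over the 12 SOCS and CIS genes, 6 were nearer to stat1b than to stat3 or stat4 in pattern (socs3b, socs1b, socs5b, socs7, cish and cishb), 6 were nearest to stat3 (socs1a, socs2, socs4, socs5a, socs6b and socs9) and 0 to stat4. Nearest of these 3 did not mean close. The patterns of stat3 and stat4 differed mainly in SBS replicate 3 (1.99 and 2.54), so genes lower there fall nearer to stat3 whatever their direction. In that library socs2 (-3.01), socs9 (-0.76), socs5a (-0.34) and socs4 (-0.24) were below the sham mean, and socs1a (1.54) and socs6b (0.22) above it. The share of genes tested that were nearer to stat3 was 93.7% for socs2, 64.0% for socs9, 63.7% for socs4, 47.7% for socs5a, 31.4% for socs1a and 28.1% for socs6b. The share nearer to stat1b was 68.4% for cish, 21.04% for cishb, 15.4% for socs5b, 8.67% for socs3b, 8.61% for socs1b and 3.83% for socs7. These numbers moved to 10, 2 and 0 without SBS replicate 1 and to 3, 5 and 4 without SBS replicate 3. Without sham replicate 3 they were 5, 6 and 1. socs7 was nearest to stat1b in each of the 5 sets that left out 1 library. Without SBS replicate 1, only SBS replicate 3 stands for SBS, and there stat1b (0.24) was below stat3 and stat4. Genes lower in that library fall nearer to stat1b in this set whatever their direction, as did socs2 (-3.01).

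The Janus kinases jak1, jak2a and jak2b were found of 5 sought. By edgeR's quasi-likelihood test 0 were called in either direction, against 2.49% higher and 2.06% lower of all genes tested. By the same test 1 was higher at an unadjusted p under 0.05, against 1948 of all 12381 genes. DESeq2's Wald test called 0, against 1177 higher and 711 lower. jak1, the kinase shared by interferon and interleukin 6 family receptors, was at 65.5, 60.4 and 48.3 CPM in sham, 170 CPM in SBS replicate 1 and 81.2 CPM in SBS replicate 3. Both SBS libraries were above sham, with SBS replicate 1 the higher, as for stat1b (log2 fold change 1.11, SE 0.38, edgeR adjusted p = 0.127). jak2a (log2 fold change 0.27) was above the sham libraries only in SBS replicate 3, at 92.3 CPM against 51.7 to 79.8 CPM in sham. jak2b (0.32) was at 36.5 to 37.0 CPM in sham, 56.3 CPM in SBS replicate 1 and 35.1 CPM in SBS replicate 3.

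The 7 other inhibitors of the pathway found were protein tyrosine phosphatases and a PIAS gene. By edgeR's quasi-likelihood test 0 were called, against 2.49% higher and 2.06% lower of all genes tested. By the same test 1 was lower at an unadjusted p under 0.05, against 1626 of all 12381 genes. DESeq2's Wald test called 0, against 1177 higher and 711 lower. The median log2 fold change of the inhibitors was -0.02. ptpn6, which encodes the phosphatase SHP-1, was at 150, 182 and 120 CPM in sham, 193 CPM in SBS replicate 1 and 128 CPM in SBS replicate 3. ptpn1 (log2 fold change 0.63) and ptpn2b (-0.02) were not called either.

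**Figure D4:**
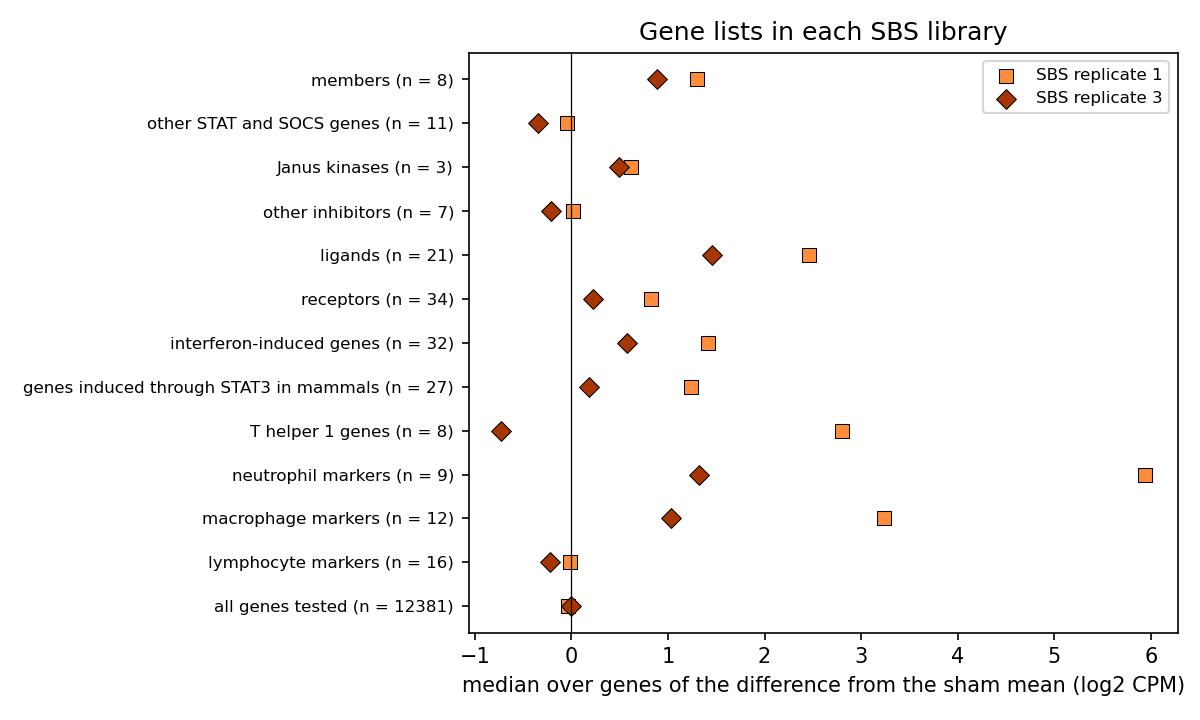
Median over the genes of each list of the difference from the sham mean, in log2 CPM, for SBS replicate 1 (orange squares) and SBS replicate 3 (red diamonds), with the number of genes in brackets. Ligands (2.46 and 1.45) and interferon-induced genes (1.41 and 0.57) lie above the median of all genes tested, which is near 0, and T helper 1 genes are on opposite sides of it (2.80 and -0.73).

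Among 21 ligands of the pathway, 0 were called by edgeR's quasi-likelihood test, against 2.49% higher and 2.06% lower of all genes tested. By the same test 10 were higher and 3 lower at an unadjusted p under 0.05, against 1948 and 1626 of all 12381 genes. DESeq2's Wald test called 9 higher and 1 lower, against 1177 and 711. The median log2 fold change of the ligands was 2.21. It fell to 0.95 without SBS replicate 1, to 1.35 with RUVg and to 1.24 with the stricter filter on low counts. The log2 fold change was above 0 for 17 of the 21, where it was for 50.0% of all genes. Of the 3 with the highest mean level, csf3a, the granulocyte colony-stimulating factor, had 7, 8 and 10 counts in sham, 1158 counts in SBS replicate 1 and 2 counts in SBS replicate 3. il15l, related to interleukin 15, was at 23.4, 32.1 and 36.9 CPM in sham, 3.53 CPM in SBS replicate 1 and 8.63 CPM in SBS replicate 3 (log2 fold change -2.34, edgeR adjusted p = 0.056). crlf1a, a soluble partner of ciliary neurotrophic factor family cytokines, was also lower in both SBS libraries (log2 fold change -1.25, edgeR adjusted p = 0.087).

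Further ligands of the pathway are given here by their counts, chosen after their values were seen. il6 had 0, 1 and 1 counts in sham, 750 counts in SBS replicate 1 and 13 counts in SBS replicate 3, and m17, a fish member of the interleukin 6 family, had 0, 2 and 2 in sham, 1072 and 8. il22, which signals to epithelium through STAT3, had 1, 6 and 0 counts in sham, 12 counts in SBS replicate 1 and 359 counts in SBS replicate 3. The interferon gamma genes parted in the same way, ifng1-1 having 36, 86 and 63 counts in sham, 28 counts in SBS replicate 1 and 663 counts in SBS replicate 3, and ifng1-2 having 2, 2 and 3 in sham, 190 and 18. il12ba, a chain of interleukin 12, whose signal STAT4 carries, had 8, 2 and 2 counts in sham, 290 counts in SBS replicate 1 and 6 counts in SBS replicate 3. Thus il6, m17, ifng1-2 and il12ba were highest in the library in which stat1b was high, and il22 and ifng1-1 in the library in which stat3 and stat4 were high. Over the whole list of 21 ligands, 13 were higher in SBS replicate 1, against 47.4% of all genes tested, and 8 in SBS replicate 3. None of these 6 genes was called (edgeR adjusted p = 0.069 to 0.256).

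Of 34 cytokine receptor genes, 0 were called by edgeR's quasi-likelihood test, against 2.49% higher and 2.06% lower of all genes tested. By the same test 9 were higher and 3 lower at an unadjusted p under 0.05, against 1948 and 1626 of all 12381 genes. DESeq2's Wald test called 8 higher and 1 lower, against 1177 and 711. The median log2 fold change of the receptors was 0.67. Of the 34 genes, 27 were higher in SBS replicate 1 than in SBS replicate 3, against 47.4% of all genes tested. The 3 most abundant were not called. il10rb, a chain shared by interleukin 10 and interleukin 22 receptors, was at 53.4 to 90.1 CPM in sham, 64.7 CPM in SBS replicate 1 and 63.6 CPM in SBS replicate 3, inside the sham range. crfb6, a class II cytokine receptor, was at 37.0 to 54.9 CPM in sham, 75.2 CPM and 63.6 CPM. ghrb, a growth hormone receptor, was at 33.6, 33.7 and 172 CPM in sham, 21.8 CPM in SBS replicate 1 and 30.6 CPM in SBS replicate 3. Its high level in sham replicate 3 set its sham mean.

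Of 32 interferon-induced genes, 2 were called higher and 0 lower by edgeR's quasi-likelihood test, against 2.49% and 2.06% of all genes tested. By the same test 14 were higher and 1 lower at an unadjusted p under 0.05, against 1948 and 1626 of all 12381 genes. DESeq2's Wald test called 10 and 1, against 1177 and 711. The median log2 fold change of the 32 genes was 1.27, or 0.52 without SBS replicate 1. Of the 32 genes, 16 were higher in SBS replicate 1 and 16 in SBS replicate 3. Among all genes tested, 47.4% were higher in SBS replicate 1. mxc, an antiviral dynamin-like GTPase, was at 3.93, 8.66 and 5.04 CPM in sham, 448 CPM in SBS replicate 1 and 75.5 CPM in SBS replicate 3, and rose by 5.48 on the log2 scale (SE 0.76, edgeR adjusted p = 0.030). gbp1, a guanylate-binding protein gene, was at 15.7, 50.5 and 26.1 CPM in sham, 251 CPM and 264 CPM, and rose by 3.07 (SE 0.51, edgeR adjusted p = 0.036). Both genes were above every sham library in both SBS libraries, mxc mostly in SBS replicate 1 and gbp1 to a like level in each. b2m, the light chain of class I major histocompatibility molecules and the most abundant gene of the list, was at 2877 to 3983 CPM in sham, 2210 CPM in SBS replicate 1 and 3529 CPM in SBS replicate 3. isg15 (chosen after its values were seen) was at 20.5, 20.0 and 12.2 CPM in sham, 300 CPM in SBS replicate 1 and 6.27 CPM in SBS replicate 3, on opposite sides of the sham libraries.

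Of 27 genes listed as induced through STAT3 in mammals, 2 were called higher and 0 lower by edgeR's quasi-likelihood test, against 2.49% and 2.06% of all genes tested. By the same test 10 were higher and 1 lower at an unadjusted p under 0.05, against 1948 and 1626 of all 12381 genes. DESeq2's Wald test called 8 and 1, against 1177 and 711. The median log2 fold change of the 27 genes was 0.65. ccnd1, which encodes the cell cycle regulator cyclin D1, was at 17.8, 21.3 and 20.0 CPM in sham, 53.9 CPM in SBS replicate 1 and 74.7 CPM in SBS replicate 3, and rose by 1.71 (SE 0.26, edgeR adjusted p = 0.029). lcn15, of the lipocalin family, is on the list but is not established as a STAT3 target. It was at 0.41, 0.34 and 0.48 CPM in sham, 24.5 CPM and 4.69 CPM, and rose by 5.15 (SE 0.72, edgeR adjusted p = 0.028). Both SBS libraries were above sham for each gene. Of the 27 genes, 23 were higher in SBS replicate 1 than in SBS replicate 3, against 47.4% of all genes tested. muc13b, a membrane mucin gene, was at 1265 to 1637 CPM in sham, 561 CPM in SBS replicate 1 and 1882 CPM in SBS replicate 3. As for socs1b, the calls of mxc, gbp1, ccnd1 and lcn15 were lost when any sham library was left out, and also that of gbp1 without SBS replicate 1 and that of ccnd1 without SBS replicate 3.

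The T helper 1 programme depends on STAT4 in mammals. Of 8 of its genes, 0 were called by edgeR's quasi-likelihood test, against 2.49% higher and 2.06% lower of all genes tested. By the same test 1 was higher and 1 lower at an unadjusted p under 0.05, against 1948 and 1626 of all 12381 genes. DESeq2's Wald test called 1 higher, against 1177. The median difference of the 8 genes from the sham mean was 2.80 for SBS replicate 1 and -0.73 for SBS replicate 3. In SBS replicate 1, 5 of the 8 were above every sham library, against 38.4% of all genes tested. In SBS replicate 3, 2 of the 8 were, against 34.7%. The median log2 fold change was 1.83, and it was -0.82 without SBS replicate 1 and -0.12 with RUVg. cxcr3.2, a chemokine receptor gene, was at 3.61, 12.5 and 7.20 CPM in sham, 88.1 CPM in SBS replicate 1 and 19.2 CPM in SBS replicate 3. cxcr3.1 was at 2.40 to 3.93 CPM in sham, 24.0 CPM and 2.06 CPM. si:dkeyp-59a8.1, matched as a RefSeq synonym of ccl38.6, was at 11.8 to 46.5 CPM in sham, 4.97 CPM and 14.8 CPM.

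Markers of some cell types also differed between the SBS libraries. The sum of 12 macrophage markers was 254 to 466 CPM in sham, 3236 CPM in SBS replicate 1 and 773 CPM in SBS replicate 3. The log2 fold change was above 0 for 12 of 12, against 50.0% of all genes tested. The sum of 9 neutrophil markers was 209 to 357 CPM in sham, 6717 CPM in SBS replicate 1 and 11435 CPM in SBS replicate 3. Without mpx, the most abundant, the neutrophil sum was 206 to 353 CPM in sham, 6432 CPM in SBS replicate 1 and 337 CPM in SBS replicate 3, so that this sum was inside the sham range in SBS replicate 3. Of the 9 genes, 9 were above every sham library in SBS replicate 1, against 38.4% of all genes tested. In SBS replicate 3, 5 were, against 34.7%. The median differences of the 9 genes from the sham mean were 5.94 and 1.32. The sum of 16 genes listed as lymphocyte markers was 119 to 181 CPM in sham, 157 CPM in SBS replicate 1 and 102 CPM in SBS replicate 3. This list holds cd3eap, which despite its name is not specific to lymphocytes, and sums without it were not taken. Without syk, the most abundant, it was 111 to 162 CPM in sham, 96.8 CPM in SBS replicate 1 and 93.7 CPM in SBS replicate 3, so that both SBS libraries were below all sham libraries. None of the macrophage and neutrophil markers was at 0 in any library, while 2 lymphocyte markers were at 0 in a sham library.

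The labelled tissue also differed between the groups in its defining markers. The sum of 17 absorptive enterocyte markers was 148955 to 172177 CPM in sham, 8752 CPM in SBS replicate 1 and 48760 CPM in SBS replicate 3. Of 19 hepatocyte markers, 15 were called higher in SBS, where 2.49% of all genes tested were. The log2 fold change was above 0 for 18 of the 19, against 50.0% of all genes, and its median was 8.24. Without apobb.1, which sham intestine expressed most, their sum was 132 to 257 CPM in sham, 24057 CPM in SBS replicate 1 and 5217 CPM in SBS replicate 3. The part of these cell types in the levels of the STAT and SOCS genes was not tested.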

How the data were processed

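Total RNA was sequenced by the authors with a stranded kit and added spike-ins. Reads were checked with FastQC, trimmed with Trimmomatic, aligned with STAR and counted with HTSeq. The methods name danRer7 and the processing notes GRCz10, so no coordinates are given. Versions and the strand setting of the counting are not given in the sources used here. The deposited counts are raw and per gene. The RPKM values, which the authors deposited beside them, hold the same counts per gene length and a scaled library size, not the plain total of counts. They were not tested. The gene length is as deposited. The columns of the authors' own test (fold change, level, likelihood ratio, p-value and false discovery rate) were not used.

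Of 12418 gene lines, 20 repeated ones were left out, 12398 were kept and 12381 had at least 10 counts over the 5 distinct libraries. The 70 spike-in lines took 0.663% to 2.43% of counts and stayed out. The tools were R 4.3.3, edgeR 4.0.16, DESeq2 1.42.0 and limma 3.58.1. The quasi-likelihood test of edgeR was fitted to TMM-scaled counts of 3 sham and 2 SBS libraries, with Benjamini-Hochberg adjustment over all genes tested. It called 308 genes higher and 255 lower in SBS. An exact permutation test of a single gene, with its one-sided p doubled, could not go below p = 0.2. Log2 CPM used a prior count of 0.5.

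The members and lists were chosen with earlier results of these data known. The members were fitted and called with all other genes, and their calls are given as a description. Named were all members, other STAT and SOCS genes and Janus kinases found, the genes called in each other list filled up to 3 by mean level, and the 3 genes nearest to stat3, stat4 and stat1b. Genes of the lists were matched by name, or by a RefSeq synonym. Alternatives were DESeq2 size factors, upper-quartile factors, library totals, filterByExpr, a minimum of 1 count, a prior count of 2, DESeq2's Wald test, the likelihood ratio test, RUVg (written by hand with 1 factor), the replicate number as a block, all 6 columns and leaving out each library. The tests were checked on simulated counts.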

Additional observations from a re-analysis of the deposited data

How the results depend on the processing

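Leaving out SBS replicate 1 turned the direction of 6 of the 23 STAT, SOCS and Janus kinase genes, and leaving out SBS replicate 3 that of 2. When 1 library was left out, the log2 fold change ran from -0.33 to 0.43 for stat1a, -0.75 to 1.30 for stat2, -0.57 to 2.06 for stat5a, -0.064 to 0.62 for jak2b, -0.41 to 0.93 for socs5b and -0.58 to 1.15 for cishb, lowest in each without SBS replicate 1 (and below 0 also without sham replicate 2 for cishb, at -0.07). It ran from -0.078 to 1.95 for stat3 and from -0.0020 to 2.50 for stat4, lowest without SBS replicate 3. RUVg gave -0.10 for stat1a, -0.25 for stat2, -0.081 for socs5b and -0.26 for cishb. Scaling by library totals alone shifted the median of all genes by 0.82 and gave 0.068 for socs4, 0.65 for socs5a, 0.29 for socs9 and 0.31 for stat5b. The cause of the other turns was not tested.

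Over all genes, calls higher and lower in SBS numbered 308 and 255, against 1177 and 711 with DESeq2's Wald test, 1215 and 716 with the likelihood ratio test, 962 and 728 with RUVg, 1183 and 753 with all 6 columns, 2 of which hold the same library, and 2095 higher with library totals. Leaving out 1 library gave 0 to 1299 higher and 0 to 1031 lower. Among the pathway lists without the members, 5 genes were called higher and 0 lower, against 37 and 5, 36 and 5, 25 and 7 and 31 and 5 under those fits in the same order, 46 higher with library totals, and 0 to 44 higher and 0 to 3 lower without 1 library. Among the members, 1 was called higher, against 2, 2, 3 and 2 under those fits, 3 with library totals and 0 to 3 without 1 library. These were not always the same genes: beside socs3b, DESeq2, the likelihood ratio test and the 6 columns called stat1b (log2 fold changes 2.45, 2.38 and 2.76), library totals stat1b and socs1a, and RUVg stat3 (1.63) and stat4 (2.08) but not stat1b (0.91). The pathway lists without the members held 11 other STAT and SOCS genes, 3 Janus kinases, 7 other inhibitors and 21 ligands. They also held 34 receptors, 32 interferon-induced genes, 27 genes listed for STAT3 and 8 T helper 1 genes. The fits named above that called more of these genes higher also called more of all genes higher. Whether the share called differed between these lists and all genes was not tested. Of 9 list medians, 6 moved without SBS replicate 1, to 0.95 for ligands, 0.18 for receptors, 0.52 for interferon-induced genes, -0.82 for T helper 1 genes, 0.48 for Janus kinases and -0.24 for other inhibitors. The SOCS and CIS genes nearest to stat1b, stat3 and stat4 numbered 3 to 10, 2 to 6 and 0 to 4 without 1 library, an alternative chosen after seeing the data.

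With the replicate number as a block, 0 genes were called higher and 0 lower over all genes, in the pathway lists and among the members (by the same edgeR test, 1923 of all genes had an unadjusted p under 0.05), and cishb was at -0.13. The block left fewer residual degrees of freedom than the 3 of the main fit. Replicate 2 had only a sham library, which therefore added nothing to the contrast. The 0 calls thus cannot be read as an effect of the block. The replicate numbers are shared between the groups but are not stated to pair the libraries. Deviations of same-numbered libraries correlated at -0.084 and -0.095. With 2 SBS libraries the SBS deviations are exact opposites of each other, so these values cannot decide on pairing. The members had 106 to 18899 counts per library, whereas several ligands had under 10 counts in each sham library.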
